A study of Mus musculus with 4 samples.

Results

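Studied here were 10 genes that take part in the removal of mitochondria and other organelles from maturing red cells, in chromatin accessibility maps of mouse fetal liver. They were Bnip3l, Ulk1, Becn1, Atg7, Atg4b, Map1lc3b, Gabarapl1, Gabarapl2, Sqstm1 and Alox15, 10 of the 21774 protein-coding genes of the RefSeq table used. A peak belonged to a gene when its summit lay in the gene body or within 100 kb with that gene as the nearest protein-coding boundary. This gave 41 merged regions of 55290, where peaks that shared at least 1 bp across libraries formed 1 region. The tissue was fetal liver at embryonic day 14.5, and the assay was ATAC-seq, which sequences the fragments that a transposase releases from open chromatin. There were 2 libraries from Hemgn knockout (KO) livers and 2 from wild-type (WT) livers. Hemogen, the product of Hemgn, is found in the nuclei of hematopoietic cells. The sources used here give neither the kind of knockout allele nor the strain, nor whether replicates were separate embryos or litters. The spread between libraries may be technical.

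A maturing red cell clears its mitochondria by autophagy, in which a membrane encloses the cargo and fuses with the lysosome. The ULK1 kinase and the Beclin 1 complex start the membrane, ATG7 and ATG4 proteins prepare small ubiquitin-like proteins of the LC3 and GABARAP families for attachment to it, and receptors such as BNIP3L (also called NIX) on mitochondria bind those proteins. Loss of Bnip3l in mice leaves mitochondria in circulating red cells, and 15-lipoxygenase, the product of Alox15, oxidises organelle membranes in reticulocytes.

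The strongest accessible regions of these genes lay at their boundaries and had peaks in both genotypes. A peak summit stood within 1 kb of a gene boundary in all 4 libraries for 9 of the 10 genes, Alox15 being the exception. The same held for 55.4% of all protein-coding genes. The start of a gene was taken from its strand where the promoter table gave one; for Bnip3l and Becn1 the strongest boundary region stands in its place. In these bulk samples, fewer cells of a type and less open chromatin per cell cannot be told apart. The exact permutation test used here cannot pass a threshold of 0.05, since 2 against 2 libraries give 6 relabelings and no p under 0.333. The values in each library are therefore given. They are percentiles: the position of a peak's fold enrichment (the authors' summit-to-background ratio) among all peaks of the same library's list.

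The promoter windows of 7 of the 10 genes were in the RefSeq promoter table (GRCm38.p6, from 250 bases before to 50 after a listed start). Bnip3l, Becn1 and Alox15 were not matched. Peaks of all 4 libraries overlapped 6 of the 7 windows, and 0 libraries had a peak over the listed window of Atg7, which lies inside the gene and not at the outer boundary where the Atg7 peak stands. Of the windows overlapped by peaks, 4 are shown to set the letters beside the peaks, with that of Atg7 for contrast, in lower case with the searched motifs in capitals. They are Ulk1 (chr5:110810032-110810331, minus strand), Map1lc3b (chr8:121590188-121590487, plus strand), Gabarapl1 (chr6:129532942-129533241, plus strand), Sqstm1 (chr11:50210771-50211070, minus strand) and Atg7 (chr6:114670846-114671145, plus strand).
Ulk1: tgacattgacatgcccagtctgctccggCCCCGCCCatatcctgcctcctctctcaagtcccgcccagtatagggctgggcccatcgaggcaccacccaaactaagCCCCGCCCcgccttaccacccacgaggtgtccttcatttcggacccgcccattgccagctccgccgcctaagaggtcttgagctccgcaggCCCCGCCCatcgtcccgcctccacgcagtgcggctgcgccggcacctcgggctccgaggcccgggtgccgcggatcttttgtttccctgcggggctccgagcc
Map1lc3b: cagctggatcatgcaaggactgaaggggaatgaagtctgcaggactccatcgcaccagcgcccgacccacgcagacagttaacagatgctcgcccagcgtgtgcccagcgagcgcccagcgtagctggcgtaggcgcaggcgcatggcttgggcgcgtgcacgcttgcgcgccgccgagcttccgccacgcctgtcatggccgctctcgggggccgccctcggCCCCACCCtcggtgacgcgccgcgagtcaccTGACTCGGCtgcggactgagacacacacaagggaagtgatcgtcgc
Gabarapl1: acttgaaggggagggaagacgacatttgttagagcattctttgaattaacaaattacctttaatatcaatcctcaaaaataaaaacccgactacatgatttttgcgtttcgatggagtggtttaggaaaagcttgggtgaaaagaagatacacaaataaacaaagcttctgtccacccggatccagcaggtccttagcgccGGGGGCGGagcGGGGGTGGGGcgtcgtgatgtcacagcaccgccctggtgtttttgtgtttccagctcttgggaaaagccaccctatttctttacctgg
Sqstm1: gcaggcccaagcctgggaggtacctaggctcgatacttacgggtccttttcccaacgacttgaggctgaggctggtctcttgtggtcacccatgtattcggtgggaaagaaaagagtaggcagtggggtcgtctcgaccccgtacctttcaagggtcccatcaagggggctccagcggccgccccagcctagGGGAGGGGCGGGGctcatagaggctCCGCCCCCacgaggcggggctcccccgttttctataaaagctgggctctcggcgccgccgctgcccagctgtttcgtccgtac
Atg7: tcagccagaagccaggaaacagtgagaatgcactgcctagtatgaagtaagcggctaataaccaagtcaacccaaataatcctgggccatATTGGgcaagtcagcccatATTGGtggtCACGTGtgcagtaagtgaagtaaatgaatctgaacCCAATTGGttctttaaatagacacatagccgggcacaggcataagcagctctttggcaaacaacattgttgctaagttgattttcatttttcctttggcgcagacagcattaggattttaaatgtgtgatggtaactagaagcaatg

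The motifs were searched on both strands. CCNCNCCC, a form of the CACCC box bound by KLF factors that also takes in GC boxes, was found in all 6 windows overlapped by peaks and not in that of Atg7, and 49.5% of the 32851 promoter windows of the table held it. Ulk1, Gabarapl1 and Sqstm1 had 3 matches each, Atg4b had 4, and Map1lc3b and Gabarapl2 had 1 each, where overlapping matches were counted separately. AGATAA and TGATAA, the letters of GATA-factor sites, matched 0 of the 7 windows, and 18.6% of all windows held at least 1 of them. The E-box CACGTG, the core of the element read by TFEB and TFE3, was found in the Atg7 window only, from position -132 relative to the listed start, and in 7.15% of all windows. TGACNNNGC, the core of the antioxidant response element, was found in the Map1lc3b window only, as TGACTCGGC from base 4 after the start, and in 12.4% of all windows. CCAAT matched the Atg7 window only (37.4% of all windows). Guanine and cytosine made up 78.0% of the Atg4b window, 68.0% of those of Ulk1 and Map1lc3b, 63.3% of that of Sqstm1, 46.3% of that of Gabarapl1 and 42.7% of that of Atg7, against a median of 52.7% over all windows. A match says only that the letters are present.

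The distance of the summits from the listed start differed between the genes with a peak there. At Gabarapl2 they fell 55 and 25 bases after the listed start in KO replicates 1 and 2, and 55 and 22 bases after it in WT replicates 1 and 2. At Map1lc3b they fell 82 and 31 bases after it in the KO libraries, and 31 and 194 in the WT libraries. The Gabarapl1 summits lay farther into the gene. They fell 487 and 355 bases after the start in the KO libraries and 217 and 240 in the WT libraries. Both KO summits were thus farther from the start than both WT summits. How often summit positions part in this way over all regions was not computed. At Sqstm1 the distances were 103 and 233 bases in the KO libraries and 183 and 274 in the WT libraries. At Ulk1 the summits stood 40 and 87 bases after the start in the KO libraries, against 40 after and 73 before it in the WT libraries (an offset of -73). The Atg4b offsets were 150 and -109 bases in KO replicates 1 and 2, and 12 bases in both WT libraries. The Sqstm1, Ulk1 and Atg4b positions of the genotypes overlapped. The summits of the 4 libraries spread over 270 bp at the Gabarapl1 start and over 259 bp at the Atg4b start.

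Bnip3l, the mitophagy receptor of red cells, had 10 regions in and around a gene of 23.6 kb, as many as the far longer Atg7. At its strongest boundary (chr14:67008228-67009307 in the coordinates of the files) the percentiles were 82.6 and 88.0 in the KO libraries, against 84.2 and 81.6 in the WT libraries. The KO mean was 85.3 ± 3.84 and the WT mean 82.9 ± 1.84 (SD, n = 2 each), a difference of 2.43 percentage points within overlapping values (two-sided exact permutation p = 0.667). The summits of all 4 libraries fell within 3 bp of each other, 51 bp from the boundary. A second broad region of 2097 bp lay 9.14 kb inside the gene (chr14:66998740-67000836), at 59.1 and 65.2 in the KO libraries and 71.4 and 51.5 in the WT libraries. It was the strongest Bnip3l region away from the boundaries in all 4 libraries, and the genotypes overlapped there too. Its neighbour (chr14:66998041-66998377) was near the bottom of every list, at 1.81 and 0.686 in the KO libraries and 4.43 and 0.764 in the WT libraries.

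Beyond the other end of Bnip3l lay a group of weaker regions. One 31.9 kb from the gene (chr14:66953250-66953659), nearly as far from the next gene Pnma2 (33.3 kb), stood at 38.2 and 35.8 in the KO libraries, against 65.3 and 41.5 in the WT libraries. Both KO values were under both WT values, and the difference was -16.4 points (KO 37.0 ± 1.69, WT 53.4 ± 16.8, SD, n = 2 each; two-sided exact permutation p = 0.333, the smallest possible). WT replicate 1 stood far above the other 3 libraries, and WT replicate 2 only a few points above the KO values. A region 26.2 kb out was absent in KO replicate 1, at 17.4 in KO replicate 2, and at 48.4 and 10.9 in the WT libraries. A region 8.0 kb out was at 31.9 and 43.0 in the KO libraries and at 25.3 in WT replicate 1, with no peak in WT replicate 2. At the other boundary (chr14:66983870-66985103) the values were 3.85 and no peak in the KO libraries, and 27.7 and 4.87 in the WT libraries. The remaining 3 regions of Bnip3l had a peak in WT replicate 1 alone, the library with the most peaks.

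Among the genes that start the autophagosome, Becn1 encodes Beclin 1, a subunit of the lipid kinase complex. Its boundary region (chr11:101301114-101302593) was at 96.2 and 97.2 in the KO libraries, against 95.6 and 96.1 in the WT libraries. Both KO values were above both WT values, but the difference was only 0.848 points (KO 96.7 ± 0.667, WT 95.9 ± 0.401, SD, n = 2 each; two-sided exact permutation p = 0.333), and the nearest KO and WT values were 96.2 and 96.1. The second Becn1 region, inside the neighbouring gene Cntd1, had a peak in WT replicate 1 alone, at 30.4.

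Ulk1 encodes the kinase that starts autophagy and had 3 regions in all 4 libraries. Its start region (chr5:110809312-110810365) was at 71.7 and 72.9 in the KO libraries, against 73.6 and 65.0 in the WT libraries, with a difference of 2.95 points (two-sided exact permutation p = 1). The WT values lay on either side of the KO values. A second region 1.70 kb inside the gene (chr5:110807958-110808917) was at 60.2 and 63.6 in the KO libraries and 67.5 and 61.5 in the WT libraries, again overlapping. Near the far end of the gene, 4.35 kb from it (chr5:110788609-110789406), the percentiles were 35.8 and 51.2 in the KO libraries, against 35.3 and 16.0 in the WT libraries. This was the highest KO minus WT difference of the 19 regions present in all libraries, at 17.8 points (KO 43.5 ± 10.9, WT 25.6 ± 13.7, SD, n = 2 each; two-sided exact permutation p = 0.333). KO replicate 1 and WT replicate 1 were nearly level there. The other 2 Ulk1 regions were at 9.81 or lower wherever they had a peak, and each lacked a peak in 1 library.

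Atg7 encodes the E1-like enzyme that activates the LC3 and GABARAP proteins. Its start region (chr6:114642882-114643907) was, with that of Becn1, the strongest of the 10 genes, at 94.7 and 96.6 in the KO libraries and 97.6 and 94.6 in the WT libraries. The genotypes overlapped (difference -0.427 points, two-sided exact permutation p = 1). Of the other 9 regions of this gene of 217 kb, 1 had a peak in all libraries, 17.0 kb inside (chr6:114659163-114660631), at 60.4 and 72.0 in the KO libraries and 73.9 and 61.5 in the WT libraries. A region 54.9 kb inside had no peak in KO replicate 1, stood at 28.4 in KO replicate 2, and at 44.6 and 33.5 in the WT libraries. Deeper in the gene and near the start, 5 further regions had a peak in 1 or 2 libraries. Atg7 had 6 and 7 peaks in the KO libraries and 5 and 3 in the WT libraries. Its KO counts include the KO-only regions described next. The share of all genes with more peaks in each KO library than in each WT library was not computed.

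Before the start of Atg7 lay 2 KO-only regions, called in KO replicates 1 and 2 and in no WT library. KO-only regions made up 1.41% of all regions (778 of 55290), and 2 of the 41 regions here. The stronger one, 28.9 kb before the gene start (chr6:114614221-114614543), was at 74.8 and 62.7 in the KO libraries, and the nearest WT peak in either list was 28.3 kb away. Its summit held 35 and 32 fragments over a local background of 2.49 and 3.80 fragments in KO replicates 1 and 2, as solved from the deposited fold and p. Of the 778 KO-only regions, 13 had a higher value in their weaker library. The lower of its KO folds, 6.88, would have stood at the 61.8 and 54.9 percentiles of the WT lists. Where a peak stood at the library-wide background, the lowest summit in a list had 9 and 12 fragments in the KO libraries, and 15 and 9 in the WT libraries. The library-wide background was 5.67 and 2.29 fragments in WT replicates 1 and 2, and 2.49 and 3.80 in KO replicates 1 and 2. The part of depth in the absence of a WT peak was not tested.

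The other KO-only region lay 65.6 kb before the start of Atg7 (chr6:114577471-114577734), at 45.3 and 24.3 in the KO libraries, with 18 and 17 fragments at the summit. The nearest WT peaks were 65.2 and 65.1 kb away in WT replicates 1 and 2. Of the 778 KO-only regions, 172 had a higher value in their weaker library. The next gene on that side, Hrh1, was 94.3 kb away, so assignment to Atg7 rests on distance alone, and with a limit of 20 kb neither region is counted for Atg7. At a fold of at least 6 the weaker region is lost and the stronger one is kept.

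**Figure D1:**
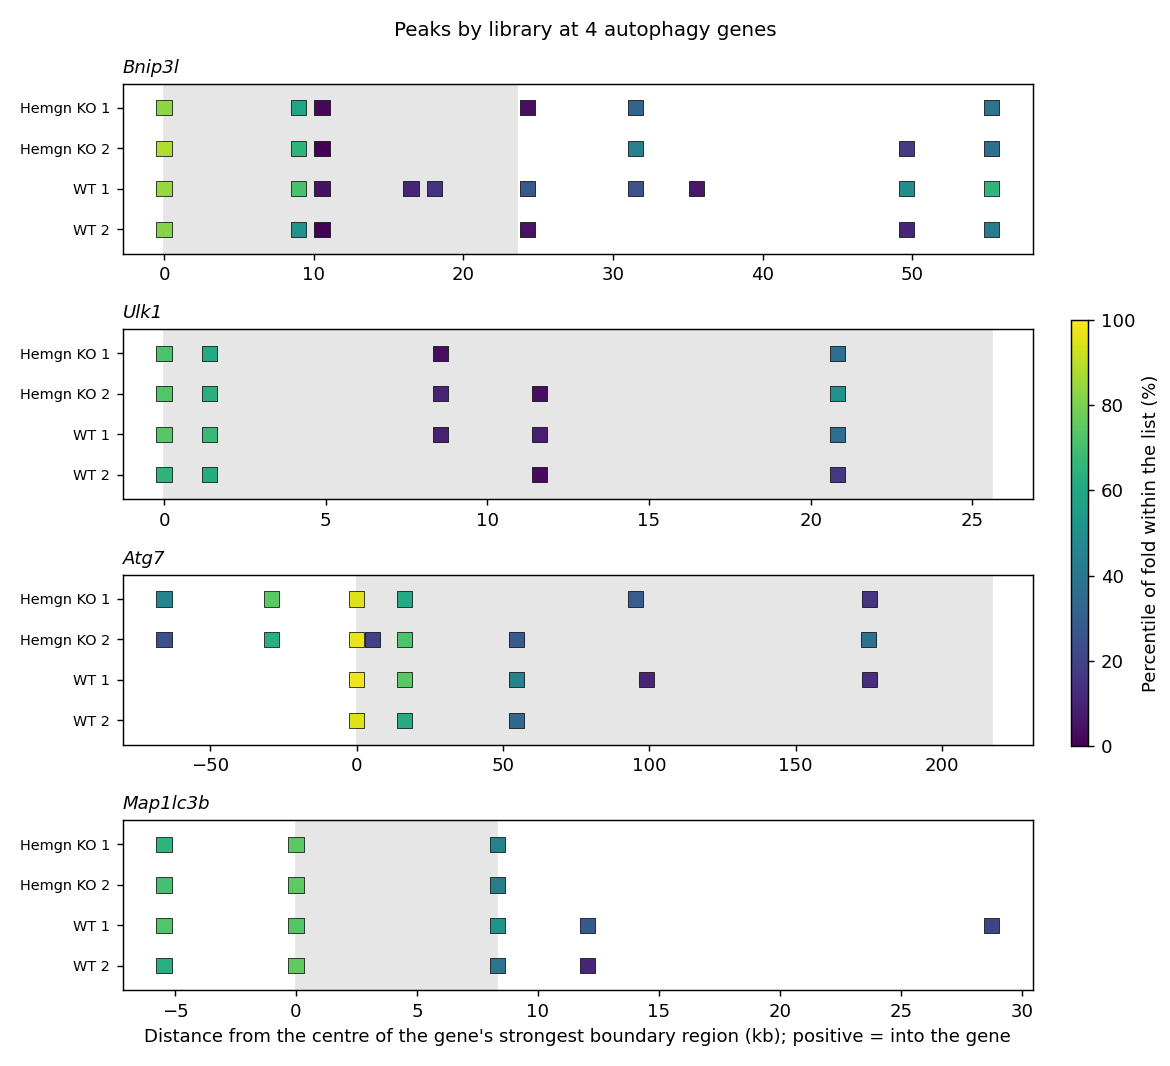
Peaks by library at Bnip3l, Ulk1, Atg7 and Map1lc3b. The horizontal axis is the distance in kb from the centre of the gene's strongest boundary region, positive towards the gene, and the grey band is the gene body; rows are KO replicates 1 and 2 above WT replicates 1 and 2, and the colour of each square is the percentile of fold within that library's list. The strongest boundary of each gene has a peak in all 4 rows, and both positions left of 0 at Atg7 have squares in the KO rows only.

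Atg4b encodes the cysteine protease that trims LC3 and GABARAP proteins before attachment and frees them afterwards. Its start region (chr1:93754031-93755514) was at 80.0 and 82.9 in the KO libraries, against 85.1 and 76.4 in the WT libraries (difference 0.745 points, two-sided exact permutation p = 1). The WT values lay on either side of the KO values. This region is shared with Thap4, whose boundary was 79 bp from the summit, and the summit of KO replicate 2 lay before the Atg4b start (an offset of -109 bases), nearer to Thap4. The values cannot be credited to Atg4b alone. The second region, 8.78 kb inside the gene (chr1:93763306-93764167), was at 45.3 and 77.1 in the KO libraries and 81.8 and 62.6 in the WT libraries. Its mean difference was -11.0 points (KO 61.2 ± 22.4, WT 72.2 ± 13.6, SD, n = 2 each), smaller than the gap between the KO libraries.

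The 3 genes of the LC3 and GABARAP family, whose proteins coat the autophagosome membrane and bind cargo receptors, all had a start region in every library. Map1lc3b, which encodes LC3B (chr8:121590234-121591610), was at 74.7 and 75.2 in the KO libraries and 73.1 and 75.4 in the WT libraries. Both KO values lay between the WT values (difference 0.708 points, two-sided exact permutation p = 1). Gabarapl2 (chr8:111939640-111941456) was at 82.9 and 85.2 in the KO libraries and 86.7 and 79.7 in the WT libraries (0.877 points, two-sided exact permutation p = 1). Gabarapl1 (chr6:129532730-129534154) was at 77.5 and 81.6 in the KO libraries and 84.0 and 81.5 in the WT libraries. Its difference of -3.17 points was the lowest of the 9 gene starts (KO 79.6 ± 2.86, WT 82.7 ± 1.75, SD, n = 2 each; two-sided exact permutation p = 0.667), with KO replicate 2 and WT replicate 2 nearly level.

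Away from the starts, Map1lc3b had a region 4.85 kb before its start (chr8:121585039-121585902), at 65.1 and 70.4 in the KO libraries and 73.0 and 62.9 in the WT libraries, with overlapping values. A region at its other end, inside the neighbouring gene Zcchc14 (chr8:121599027-121599505), was at 43.4 and 41.1 in the KO libraries and 52.1 and 38.8 in the WT libraries. Map1lc3b also had the only WT-only region of the 10 genes, with a peak in both WT libraries and neither KO library; WT-only regions made up 2.20% of all regions (1219 of 55290), and 1 of the 41 here. It lay 4.26 kb beyond the far end, inside Zcchc14 (chr8:121602784-121603137), at 27.6 and 10.7 in WT replicates 1 and 2. Its summits held 41 and 18 fragments over local backgrounds of 10.5 and 4.39 fragments in WT replicates 1 and 2, and 799 of the 1219 WT-only regions had a higher value in their weaker library. KO peaks stood 3.32 and 3.28 kb away. Gabarapl1 had a region 2.05 kb beyond its far end (chr6:129543854-129544556) with no peak in KO replicate 1, at 64.1 in KO replicate 2 and at 72.5 and 54.1 in the WT libraries.

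Sqstm1 encodes p62, an adaptor that links ubiquitin-marked cargo to LC3. It had a single region, at its start (chr11:50209914-50211144), at 85.4 and 82.6 in the KO libraries and 84.3 and 83.3 in the WT libraries. Both WT values lay between the KO values (difference 0.204 points, two-sided exact permutation p = 1). Alox15 had no peak within 1 kb of either boundary in any library. Its body in the gene table spans 46.4 kb, its strand was not given and no promoter window was matched. Whether a start of Alox15 lies at one of its inner regions is therefore not known here. One region 7.57 kb inside the gene (chr11:70351356-70352131) had a peak in every list, at 38.2 and 24.3 in the KO libraries and 42.8 and 33.5 in the WT libraries. The other, 15.9 kb inside from the opposite end (chr11:70374418-70374728), had a peak in KO replicate 2 at 32.1 and in WT replicate 1 at 44.6, the libraries with the most peaks of their genotype.

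**Figure D2:**
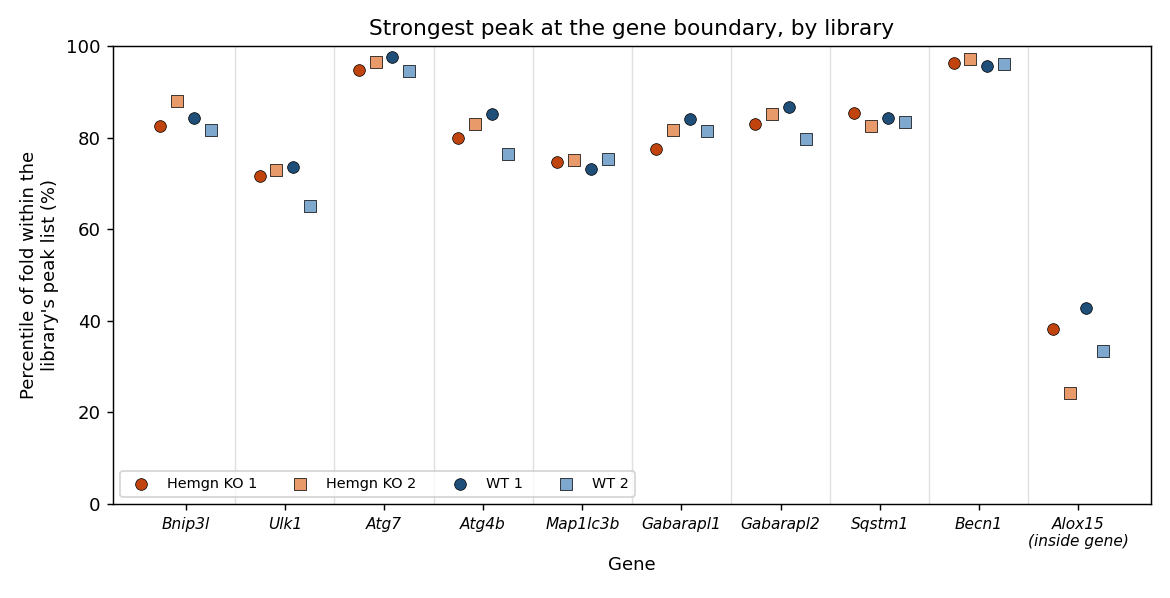
Percentile of fold within each library's list (vertical axis, percent) at the strongest boundary region of each gene, and for Alox15 at its region inside the gene. Each symbol is 1 library, KO replicates 1 and 2 in orange to the left of WT replicates 1 and 2 in blue. The genes with a boundary peak lie between 65.0 and 97.6 and Alox15 between 24.3 and 42.8, and on this scale the genotypes are apart only at Becn1, where the nearest KO and WT values are 96.2 and 96.1.

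By presence, 19 of the 41 regions (46.3%) had a peak in all 4 libraries, against 49.7% of all regions. Of the 12 boundary regions 10 were in all libraries, of the 19 regions inside genes 7, and of the 10 outside 2. The same split by place over all regions was not computed. KO replicates 1 and 2 had 26 and 29 of the peaks, and WT replicates 1 and 2 had 36 and 25, or 27.5 ± 2.12 in KO and 30.5 ± 7.78 in WT (SD, n = 2 each). Of the 10 regions found in 1 library, 7 were in WT replicate 1, which is 17.1% of the 41 regions against 12.9% of all regions. A peak was missing only in KO replicate 1 at 4 regions (9.76%, against 4.85% of all regions). It was missing only in WT replicate 2 at 2 (4.88%, against 5.78%) and only in KO replicate 2 at 1 (2.44%, against 0.884%). These shares were not tested. Absence differed within genotypes: 15 and 11 of the 41 regions had no peak in the KO libraries, and 5 and 16 in the WT libraries. The Atg4b start counts as present in KO replicate 2 here, although the summit there was assigned to Thap4 and is not among the 29 peaks.

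**Figure D3:**
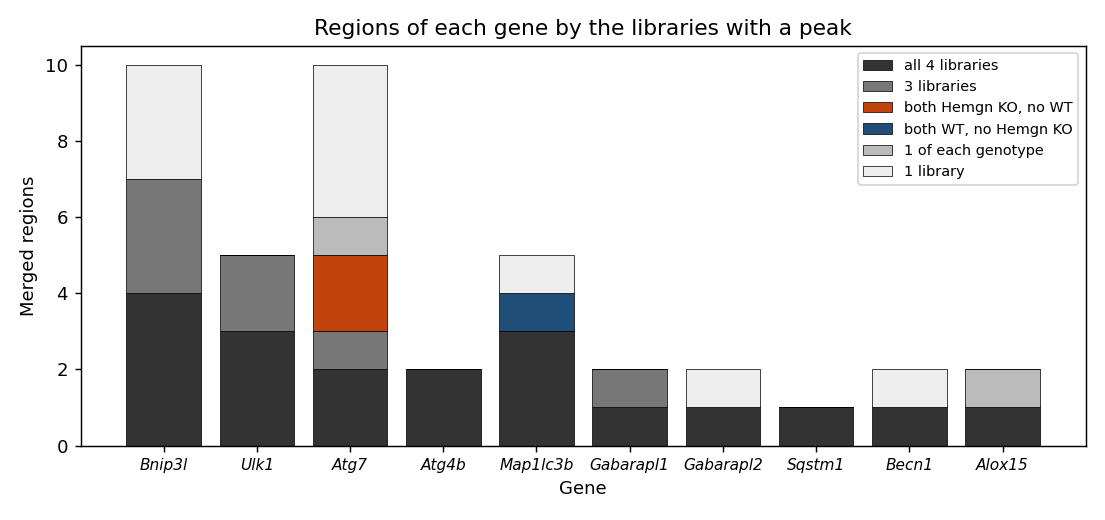
Number of merged regions of each gene (vertical axis), divided by the libraries in which they had a peak. Bars for Atg7 hold both KO-only regions, the Map1lc3b bar holds the single WT-only region, and all 10 genes have at least 1 region found in all 4 libraries.

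Over the 19 regions present in every library the median difference, KO minus WT, was -0.186 points (range -16.4 to 17.8), with 10 regions lower and 9 higher. Over all 27473 such regions the median was -0.578 points and the quartiles were -4.72 and 2.35. The 10 boundary regions had a median of 0.727 points and a range of -3.23 to 2.95, and all 11558 boundary regions a median of 0.0204. Regions inside genes (7) had a median of -1.49. Both KO values lay under both WT values at 1 of the 19 regions, the outer Bnip3l region, and 13.6% of all regions in 4 libraries did so. Both KO values lay above both WT values at 2 of 19, the Becn1 start and the inner Ulk1 region, against 9.98% of all regions. At the other 16 the genotypes overlapped. These shares over all regions are on the main percentile scale. None was computed on the other scales below, so the starts apart there have no background to be read against. Which starts stood apart depended on the scale: with percentiles taken among the shared regions only, the Becn1 start overlapped (two-sided exact permutation p = 0.667), while the Bnip3l (4.62 points), Ulk1 (5.03), Gabarapl2 (1.63) and Gabarapl1 (-3.42) starts did not (two-sided exact permutation p = 0.333 each, the smallest possible). By percentile of −log10 q the Becn1 start again overlapped (-0.0119 points, two-sided exact permutation p = 1), and the Map1lc3b start was the one apart, with both KO values under both WT values (-0.466 points, two-sided exact permutation p = 0.333).

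The spread between libraries of a genotype was as large as these differences. WT replicate 1 stood above WT replicate 2 at 17 of the 19 regions and at 90.2% of all regions, and KO replicate 2 above KO replicate 1 at 14 of the 19 and at 76.4% of all. The median gap within a genotype was 2.96 points between KO libraries and 8.60 points between WT libraries at the 19 regions, against a median size of 1.49 points for the difference between genotypes. Over all 27473 regions in 4 libraries the same values were 5.07, 8.65 and 3.49 points. A gap lies between single libraries and the difference between means of 2 libraries, so the measures are unlike. Both libraries that ranked higher had the higher background of their genotype, a measure of relative depth: 3.80 against 2.49 fragments in KO replicates 2 and 1, and 5.67 against 2.29 in WT replicates 1 and 2. The part of depth in the differences was not tested.

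**Figure D4:**
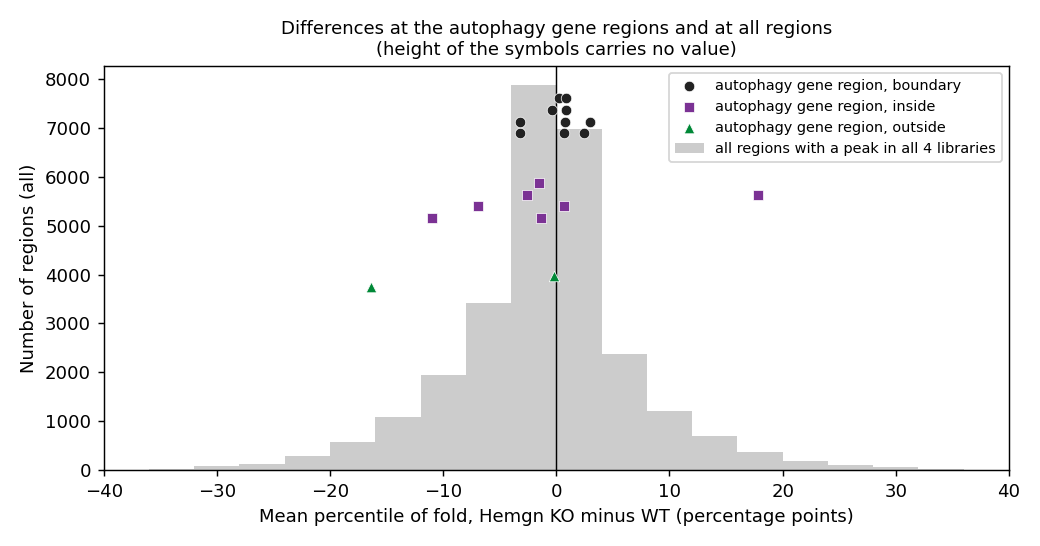
Difference in mean percentile of fold, KO minus WT (horizontal axis, percentage points), at the 19 regions of these genes (symbols, by place relative to the gene, at heights that carry no value) over the histogram of all 27473 regions present in 4 libraries (vertical axis, number of regions). The 10 boundary regions lie between -3.23 and 2.95, and the regions far from 0 are inside or outside the genes, at Bnip3l (-16.4), Atg4b (-11.0) and Ulk1 (17.8).

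Next, 40 other genes of the pathway were read. For each, the strongest region within 1 kb of either boundary was taken, whatever the strand. It was used also where its summit was assigned to a neighbouring gene, as at Atg13, which had 0 assigned regions in all libraries. A boundary peak was present in all 4 libraries at 37 of them. Atg4a, a protease gene related to Atg4b, had one in 3 libraries. None was found in any library at 2 genes, Pik3c3, the catalytic subunit of the Beclin 1 complex, and Atg4c. Each of these had 2 regions away from its boundaries with a peak in all 4 libraries. At the strongest boundary region the median difference over the 37 genes was 0.110 points. Both KO values lay under both WT values at 4 of the 37 genes (10.8%, against 13.6% of all regions in 4 libraries) and above them at 6 (16.2%, against 9.98%), and the genotypes overlapped at 27. The shares over all regions take in regions of any place, and the shares among boundary regions alone were not computed. These shares were not tested, and the genes are given as values. Among the 4 was Bnip3, the receptor closest to Bnip3l, at 93.0 and 94.1 in the KO libraries against 94.6 and 94.8 in the WT libraries. Calcoco1, an adaptor gene, was at 84.4 and 85.8 in the KO libraries against 87.7 and 89.4 in the WT libraries. The receptor gene Optn was at 95.8 and 95.5 in the KO libraries against 96.2 and 97.4 in the WT libraries, and the late endosome GTPase gene Rab7 at 98.0 and 98.8 against 99.1 and 98.9 in the WT libraries. Among the 6 was Gabarap, of the same family as Gabarapl1 and Gabarapl2, at 62.7 and 62.1 in the KO libraries against 61.5 and 50 in the WT libraries, so that WT replicate 1 lay close under the KO values and WT replicate 2 far under them. Wipi1, which encodes a lipid-binding protein of the growing membrane, was at 75.0 and 75.4 in the KO libraries against 71.6 and 68.6 in the WT libraries. Uvrag was at 79.3 and 79.5 in the KO libraries against 78.4 and 74.8 in the WT libraries, and Atg4d at 73.5 and 76.8 against 73.4 and 68.2 in the WT libraries, where KO replicate 1 and WT replicate 1 were nearly level. Atg5 and Stx17 made up the 6, with all their values between 97.1 and 99.5.

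These 40 genes held 168 regions, of which 79 were in all libraries (47.0%, against 49.7% of all regions), 4 were KO-only (2.38%, against 1.41%) and 3 WT-only (1.79%, against 2.20%). These shares were not tested. The KO-only regions were at Atg14 (33.9 and 24.3), Uvrag (27.5 and 11.3), Atg16l1 (12.5 and 18.2) and Tfeb (18.3 and 28.4), percentiles of KO replicates 1 and 2. The WT-only regions were at Atg14 (72.3 and 46.9), Atg4a (35.4 and 6.53) and Rab7 (23.3 and 23.9), percentiles of WT replicates 1 and 2. Atg14, a targeting subunit of the Beclin 1 complex, thus had 1 region of each kind, the WT-only one inside the gene and the KO-only one 29.6 kb outside it.

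The lists held 35426 and 43018 peaks in the KO libraries and 47858 and 34181 in the WT libraries. Boundary peaks made up 34.7% and 29.7% of the KO lists and 27.8% and 35.3% of the WT lists, against 6.67% to 7.31% once the lists were shifted by 5, 20 or 50 kb, a check that the gene table fits the coordinates. Of 10 erythroid marker genes, 8 had a boundary peak in all libraries (Gata1 had none), against 1 of 6 hepatocyte, 0 of 5 macrophage, 0 of 5 granulocyte, 2 of 4 megakaryocyte and 1 of 4 endothelial markers, and 2 of 4 muscle and neuron genes taken as absent controls (Actn3 and Syn1). Markers that split by genotype were Cd79b and Blnk of lymphocytes and Pecam1 of endothelium, with a boundary peak in both KO libraries and no WT library, and S100a8 and Camp of granulocytes, with one in both WT libraries and no KO library. The other granulocyte markers did not follow them: Ltf had a boundary peak in 2 KO libraries and 1 WT library, Mpo in 1 KO library and no WT library, and Elane in none. Their part in the differences above was not tested.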

How the data were processed

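Open chromatin was measured by Omni-ATAC in fetal liver cells at embryonic day 14.5, with 2 Hemgn KO and 2 WT libraries, grouped by the genotype in the labels. Replicate numbers followed the labels, although peak names within the files use different ones. The submitters' processing notes name MACS2 2.2.7.1, Picard 2.21.4, SAMtools 1.9 and Bowtie2 2.3.5; neither settings nor genome build is given in the sources used here. The authors deposited a peak list for each of the 4 libraries, without pooling. Each peak carries the authors' fold enrichment, a ratio of fragments at the summit to local background with 1 added to numerator and denominator. Each peak's −log10 p and −log10 q were also deposited by the authors. The deposited score is a rounded form of the −log10 q. All values describe single lists, so regions were compared between libraries by within-list percentiles; for the KO-only and WT-only regions, summit fragments with their backgrounds, and the place one fold would take in other lists, are also given.

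From these lists, peaks on autosomes 1 to 19 and the sex chromosomes were merged where they shared at least 1 bp, and summits were assigned to the nearest gene boundary within 100 kb with the RefSeq gene table of GRCm38.p6. Summits within 1 kb of a boundary count as boundary peaks. Fragments at a summit and their background were solved from fold and −log10 p for all peaks with a −log10 p under 60. They give relative depth, and the counting error at a single summit of few fragments is large. Values of 2 against 2 libraries were compared by two-sided exact permutation. No model was fitted across regions, so the p-values, at 9 boundary regions and the other named regions in all libraries, are unadjusted. The named genes are all 10 members, and of 40 other pathway genes those with a KO-only or WT-only region, without a boundary peak, or with genotypes that did not overlap. The members and lists were chosen with earlier results of these data known. Promoter sequences are from RefSeq (GRCm38.p6). A comparison of protein sequences was planned and not run. Merging, presence and assignment were tested on simulated peaks. Python 3.11.15, numpy 2.4.6, pandas 2.3.3, scipy 1.17.1 and matplotlib 3.10.9 were used. Alternatives covered merging, thresholds, assignment, percentile scale and each library left out.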

Additional observations from a re-analysis of the deposited data

How the results depend on the processing

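The 9 genes with a boundary peak in all libraries stayed 9 with boundary windows of 500 bp and 2 kb, at a fold of at least 6, when lists were cut to equal length, and without each library. Regions in all libraries numbered 13 at a fold of at least 6 and 17 to 19 under the other settings with 4 libraries, against 19. KO-only regions numbered 1 at a fold of at least 6, 3 when lists were cut to equal length by fold (1 of them at Bnip3l) and 0 with assignment within 20 kb, against 2; both lie beyond 20 kb. Cut to equal length by q there were 2, at Atg7 and Bnip3l. WT-only regions numbered 2 with windows around summits, 0 at a fold of at least 6 and 4 when lists were cut to equal length by q, against 1. Without each library in turn the regions in all libraries ranged from 19 to 23, KO-only from 2 to 4 and WT-only from 2 to 8. KO-only stood at 4 without KO replicate 1 or WT replicate 1, and WT-only at 8 without WT replicate 2, 5 without KO replicate 2 and 2 without KO replicate 1 or WT replicate 1. A region then needs fewer libraries to count. The stronger Atg7 region stayed KO-only under the other merging rules, at a fold of at least 6 and with lists cut to equal length. The weaker Atg7 region was lost at a fold of at least 6 and when lists were cut by q. The Map1lc3b WT-only region was lost at a fold of at least 6 and when lists were cut by fold. Leaving out a library or shortening the assignment limit could not end either class, so those settings were no check on these regions.

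The median difference over regions in all libraries, -0.186 points, was -1.99 by percentile of q, 0.788 by percentile among shared regions, and -3.61 to 1.32 without each library, so its sign is not settled. By percentile of q the differences at 4 starts changed sign: Map1lc3b -0.466, Gabarapl2 -0.750, Sqstm1 -1.35 and Becn1 -0.0119; the cause was not tested. By percentile among shared regions no start changed sign. Without each library in turn the difference ranged from -0.285 to 5.14 at Bnip3l, -1.35 to 7.25 at Ulk1, -1.90 to 1.04 at Atg7, -3.61 to 5.10 at Atg4b, -0.427 to 1.84 at Map1lc3b, -2.63 to 4.39 at Gabarapl2, -1.21 to 1.62 at Sqstm1, -5.19 to -1.15 at Gabarapl1 and 0.377 to 1.32 at Becn1, so 2 of the 9 starts held their sign throughout. The replicate numbers pair no cultures or animals in the labels. Deviations of same-numbered libraries correlated at r = -0.202 over 27473 regions. With the replicate block the lowest exact p at a start was 0.5, its smallest possible value, and 0 differences passed. A crossed block, added after seeing the data, also gave 0.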
